A study of Mus musculus and Homo sapiens with 30 samples.

Results

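The circadian clock genes Per1, Per2, Per3, Cry1, Cry2, Nr1d1, Nr1d2, Dbp, Tef and Bhlhe40 were followed in 2 mouse mammary cell lines, and PER1, PER2, DBP and NR1D1 in a human line. They were chosen by name, with earlier results of these data known. The 10 mouse genes were found by symbol among 56980 Ensembl IDs, and the 4 human genes by ID among 61552. All 10 passed the filter on low counts in both mouse lines, and all 4 did in the human line. The series measured how breast cells respond to the medium conditioned by inguinal adipocytes (the secretome), taken from lean or obese sources. RNA was sequenced from 30 libraries: SkBr3, a human breast cancer line (4 libraries per medium), E0771, a mouse mammary cancer line, and NMuMG, a mouse mammary epithelial line (3 libraries per medium each).

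After 36 h of growth, cells of each line spent 16 h in 1 of 3 media. These were the standard growth medium alone (control), or the lean or the obese secretome added to make up 50% of the medium. All lines were grown in DMEM with 10% FBS. For NMuMG the labels also give insulin at 10 mcg/ml and glucose at 4.5 g/L, which they do not state for the other lines. Growth medium may thus differ with the line, and the parts of line and medium cannot be told apart where the mouse lines are compared. The control received no adipocyte medium of any kind. The labels do not say from which species, animals or pools the adipocytes came, nor that replicates were separate cultures, so p-values measure the spread between these libraries, which may be technical. A single time was sampled: a shift in the timing of a rhythm and a change in its mean level cannot be told apart, nor can fewer cells with a transcript and less of it per cell.

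The mammalian clock is a feedback loop of transcription. CLOCK and BMAL1 (the product of Arntl) bind E-box sequences and drive the Per and Cry genes, whose proteins return to the nucleus and repress CLOCK and BMAL1. CLOCK and BMAL1 also drive Nr1d1 and Nr1d2, which encode the repressors REV-ERBα and REV-ERBβ of Arntl, the D-box activators Dbp and Tef, and Bhlhe40, a repressor that binds E-boxes. The loop runs in most tissues, the mammary gland included, and in many cultured cells it is reset by serum, glucocorticoids and a change of medium.

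Library totals lay between 18479433 and 31094119 counts, and between 22929035 and 31094119 in the mouse lines. Levels are CPM (counts over the TMM-scaled library total of the tested genes, on the usual CPM scale), and CPM is not divided by gene length unless a value is said to be per kb. Fold changes are log2 values with their SE from edgeR's quasi-likelihood test, and a gene was called at a Benjamini-Hochberg adjusted p under 0.05 over all genes tested in that line. The labels list every sample as breast cancer. In NMuMG all 5 epithelial markers (Epcam, Cdh1, Krt8, Krt18, Krt19) were present. In E0771 only Krt8 averaged at least 1 CPM (228.9 to 259.3 CPM over its libraries), Epcam, Cdh1 and Krt18 were near 0 and Krt19 was 0 throughout.

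In E0771, most of the clock genes were lower with lean secretome than with the other media. Compared with obese secretome, 7 of 10 fell and 1, Per1, rose; compared with control, 8 fell and 2, Per1 and Cry1, rose. The largest falls were in Dbp, Per3 and Per2. Of all 13813 genes tested in that line, 52.7% were called for lean against obese (26.9% lower and 25.8% higher) and 56.3% for lean against control (29.0% lower and 27.3% higher), and the members' 8 and 10 calls are read against those shares. The median log2 fold change of the 10 genes was -0.40 against obese and -0.42 against control, beside medians over all tested genes of 0.003 and -0.013. The groups did not overlap for 9 and 10 of the 10 genes, beside 60.1% and 61.4% of all genes. Since the members were chosen with earlier results of these data known, an excess over all genes is a description and not a test. The values of each gene by library are shown in the plot of CPM in the mouse lines.

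**Figure D1:**
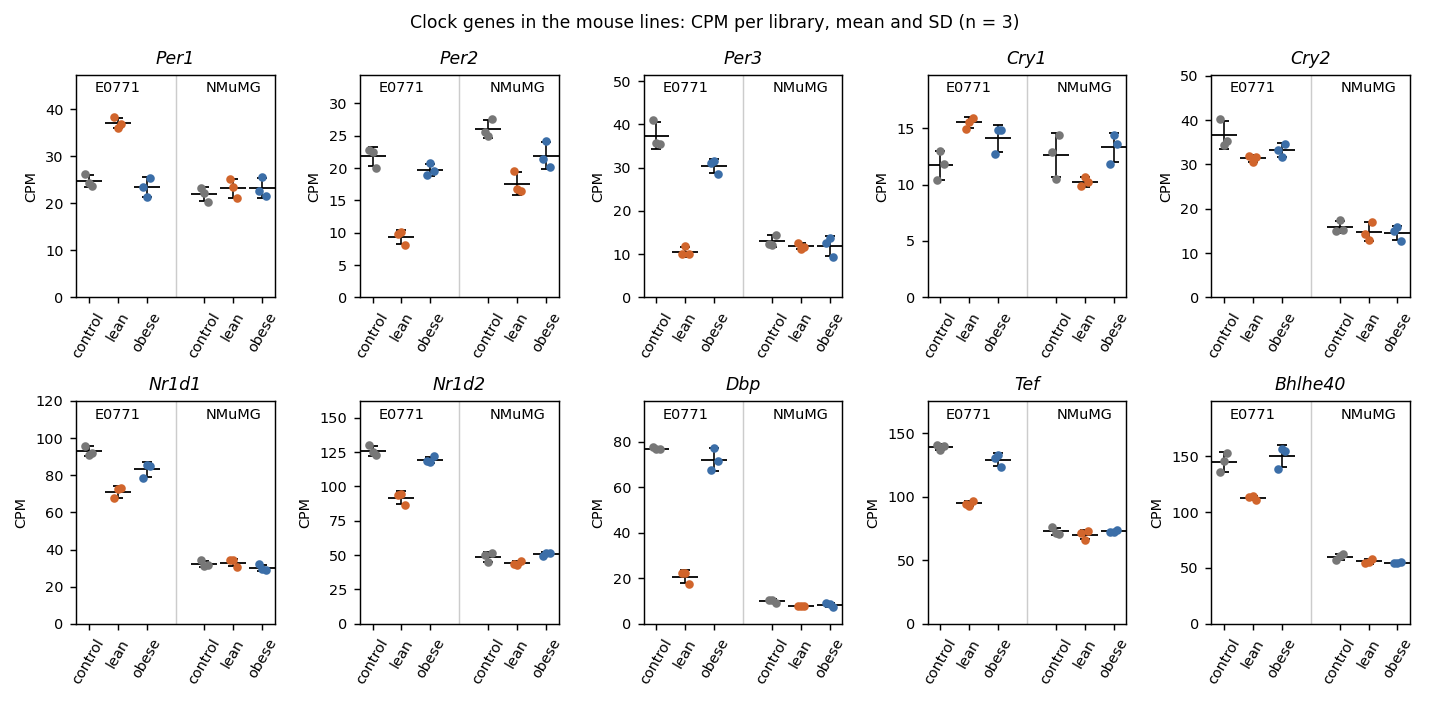
CPM of the 10 clock genes in each library (points) of E0771 and NMuMG in control medium, lean secretome and obese secretome; horizontal lines are means and bars are SD (n = 3), and each axis starts at 0. In E0771 the 3 lean libraries of Dbp, at 17.3 to 22.4 CPM, lie below the control and obese libraries, while Per1 is highest in the lean libraries.

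The period genes did not move together. Per1 (ENSMUSG00000020893), which responds fast to outside signals as well as to the clock, was at 26.3, 24.3 and 23.8 CPM in the E0771 control libraries, at 38.3, 36.1 and 36.9 CPM in lean and at 23.6, 21.3 and 25.5 CPM in obese. All lean libraries lay above all others. The rise was 0.66 (SE 0.0681, adjusted p = 1.69e-08) against obese and 0.58 (SE 0.0679, adjusted p = 9.15e-08) against control, with 6.41% and 8.41% of genes rising more. Per2 (ENSMUSG00000055866), the core repressor of the family, was at 22.8, 22.5 and 20.0 CPM in control, 9.86, 10.1 and 8.05 CPM in lean and 18.9, 20.7 and 19.6 CPM in obese. Lean libraries were lowest without overlap, and the fall was 2.12-fold against obese (log2 -1.08, SE 0.0902, adjusted p = 5.83e-10) and 2.34-fold against control (log2 -1.22, SE 0.0896, adjusted p = 4.49e-11). Per3 (ENSMUSG00000028957), a less essential relative, was at 41.0, 35.8 and 35.4 CPM in control, 9.97, 12.0 and 9.96 CPM in lean and 31.1, 31.6 and 28.5 CPM in obese. Its fall was 2.86-fold against obese (log2 -1.52, SE 0.0827, adjusted p = 8.23e-13) and 3.53-fold against control (log2 -1.82, SE 0.0817, adjusted p = 3.01e-14). Per3 thus ranked 106th and Per2 294th from the lowest of the 13813 fold changes against obese.

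Because Per1 rose where Per3 fell, their promoters are shown first, as the 250 bases before an annotated start in RefSeq (build GRCm38.p6), 5′ to 3′ on the gene's strand. RefSeq promoters were matched for 8 of the 10 genes, in 10 windows; Per2 and Bhlhe40 had no entry. Capitals mark matches on either strand to the E-box CACGTG, the E′-box CACGTT, the D-box TTATGTAA, the cyclic AMP response element TGACGTCA or the REV-ERB and ROR site TAGGTCA, letters which are held by 6.02%, 3.85%, 0.819%, 1.55% and 2.23% of 32851 such windows. The window of the first annotated start of Per1 lies at chr11:69098699-69098948 (+) and its E-box begins 166 bases before the start. That of the second start, at chr11:69099902-69100151 (+), held no match and is not shown. The window of Per3 lies at chr4:151044666-151044915 (-) and its D-boxes begin 205 and 158 bases before the start.
Per1: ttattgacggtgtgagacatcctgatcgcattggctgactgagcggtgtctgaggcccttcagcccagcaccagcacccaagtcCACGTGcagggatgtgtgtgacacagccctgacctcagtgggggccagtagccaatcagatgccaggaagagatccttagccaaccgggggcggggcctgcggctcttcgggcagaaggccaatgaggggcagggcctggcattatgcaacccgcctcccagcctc
Per3: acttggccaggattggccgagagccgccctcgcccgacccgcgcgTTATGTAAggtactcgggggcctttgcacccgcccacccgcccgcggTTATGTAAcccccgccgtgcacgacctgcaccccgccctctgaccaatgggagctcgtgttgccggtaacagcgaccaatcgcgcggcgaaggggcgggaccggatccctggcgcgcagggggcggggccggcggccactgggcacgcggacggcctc

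The cryptochromes, partners of the PER proteins in repression, changed less. Cry1 (ENSMUSG00000020038) was at 10.4, 13.0 and 11.8 CPM in E0771 control, 14.9, 15.5 and 15.9 CPM in lean and 12.7, 14.8 and 14.8 CPM in obese. Lean libraries lay above all others; Cry1 rose against control by 0.40 (SE 0.0909, adjusted p = 0.000584), and its value of 0.13 against obese (SE 0.0887, adjusted p = 0.227) was not called. Cry2 (ENSMUSG00000068742) was at 40.2, 34.4 and 35.4 CPM in control, 31.9, 30.5 and 31.6 CPM in lean and 33.2, 31.6 and 34.7 CPM in obese. It fell against control (log2 -0.23, SE 0.0647, adjusted p = 0.00441; 0.0563 without control replicate 1), and its -0.08 against obese (adjusted p = 0.316) was not called. The Cry1 window, at chr10:85185055-85185304 (-), was the single one of the 10 with both an E′-box and an E-box, which begin 79 and 60 bases before the start.
Cry1: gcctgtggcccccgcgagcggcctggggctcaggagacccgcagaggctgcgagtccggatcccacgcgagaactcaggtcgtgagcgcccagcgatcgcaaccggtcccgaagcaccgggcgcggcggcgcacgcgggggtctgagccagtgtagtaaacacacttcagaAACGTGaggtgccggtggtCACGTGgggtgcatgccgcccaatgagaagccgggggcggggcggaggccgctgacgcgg

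Both REV-ERB genes fell in E0771 with lean secretome. Nr1d1 (ENSMUSG00000020889) was at 95.9, 91.1 and 91.8 CPM in control, 67.5, 72.6 and 73.2 CPM in lean and 78.6, 85.7 and 85.2 CPM in obese. The 3 groups did not overlap: control was highest and lean lowest, with log2 -0.23 against obese (SE 0.0491, adjusted p = 0.0004) and -0.39 against control (SE 0.049, adjusted p = 3.09e-07). Nr1d2 (ENSMUSG00000021775) was at 129.8, 125.0 and 122.5 CPM in control, 94.1, 94.8 and 86.4 CPM in lean and 118.4, 117.6 and 121.9 CPM in obese. It fell by 0.38 on the log2 scale against obese (SE 0.0452, adjusted p = 1.63e-07) and by 0.45 against control (SE 0.0451, adjusted p = 6.87e-09). In the GENCODE M21 annotation, 263 of the 3077 exon bases of Nr1d1 (8.55%) overlap Thra, a thyroid hormone receptor gene on the opposite strand, and the strand setting of the counting is not given in the sources used here. Thra itself fell in E0771 (log2 -0.74 against obese and -0.82 against control), and the part of shared reads in the Nr1d1 values was not tested.

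Dbp and Tef encode activators of the PAR bZIP family, which act through D-boxes. Dbp (ENSMUSG00000059824), the member with the largest fall, was at 77.4, 76.9 and 76.5 CPM in E0771 control, 22.1, 22.4 and 17.3 CPM in lean and 67.3, 77.2 and 71.4 CPM in obese. The lean libraries held 28.6% of the obese level and 26.7% of the control level, without overlap. The fold changes were -1.81 (SE 0.0759, adjusted p = 9.41e-13) and -1.90 (SE 0.0758, adjusted p = 2.89e-13), and the first was the 54th lowest of 13813 genes. Tef (ENSMUSG00000022389) was at 140.5, 136.6 and 140.3 CPM in control, 94.6, 93.1 and 96.8 CPM in lean and 130.8, 133.2 and 123.8 CPM in obese. Lean was lowest without overlap, by -0.45 against obese (SE 0.0423, adjusted p = 4.36e-09) and -0.55 against control (SE 0.0422, adjusted p = 8.65e-11). Sphk2, a sphingosine kinase gene, overlaps 539 of the 2993 exon bases of Dbp (18.0%) on the opposite strand, and was not called in E0771 for lean against obese (log2 0.08, adjusted p = 0.16), at 60.5 to 64.1 CPM on average in the 3 media. The windows of Dbp, at chr7:45704997-45705246 (+), and of the second annotated start of Tef, at chr15:81811164-81811413 (+), are shown because both genes fell in E0771 and by unequal amounts. The Dbp window held none of the 5 motifs, and that of Tef an E-box that begins 138 bases before the start.
Dbp: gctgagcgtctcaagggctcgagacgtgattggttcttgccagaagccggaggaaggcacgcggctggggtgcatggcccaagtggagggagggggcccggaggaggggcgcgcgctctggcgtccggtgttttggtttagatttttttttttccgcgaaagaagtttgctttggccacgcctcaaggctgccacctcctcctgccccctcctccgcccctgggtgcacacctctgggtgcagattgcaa
Tef: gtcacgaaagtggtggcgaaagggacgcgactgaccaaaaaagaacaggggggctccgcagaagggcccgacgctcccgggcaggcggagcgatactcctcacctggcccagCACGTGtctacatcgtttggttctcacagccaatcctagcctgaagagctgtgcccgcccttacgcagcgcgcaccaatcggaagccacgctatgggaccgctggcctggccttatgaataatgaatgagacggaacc

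**Figure D2:**
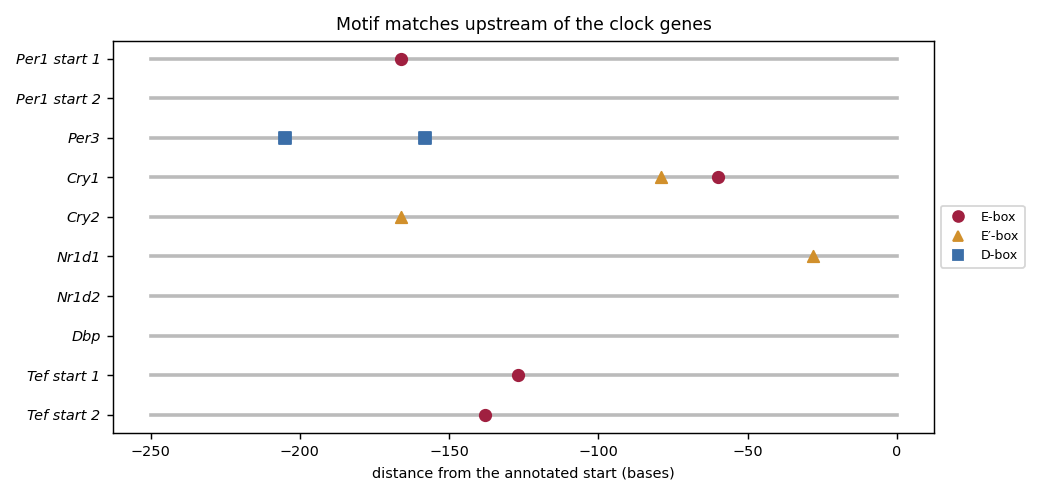
Positions of motif matches in the 250 bases before each annotated start of 8 clock genes (x axis, distance from the start in bases; rows, 10 promoter windows; symbols, motifs found on either strand). Per3 holds 2 D-boxes, while the windows of Nr1d2, Dbp and the second start of Per1 hold no match.

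Across the 10 windows, E-boxes were found in Cry1, both starts of Tef and the first but not the second start of Per1. E′-boxes were found in Cry1, Cry2 and Nr1d1. D-boxes were found in Per3 alone, and no window held the cyclic AMP response element or the REV-ERB and ROR site. These are matches of letters within 250 bases. Many known clock elements lie farther away or within introns, so a window without a match says nothing about binding.

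Bhlhe40 (ENSMUSG00000030103), also called Dec1, was at 135.7, 145.4 and 153.0 CPM in E0771 control, 113.8, 114.0 and 110.8 CPM in lean and 138.6, 156.3 and 154.8 CPM in obese. Lean libraries lay below all others, by -0.41 against obese (SE 0.0492, adjusted p = 2.03e-07) and -0.36 against control (SE 0.0494, adjusted p = 1.23e-06).

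In NMuMG the clock genes that were called with lean secretome all fell, by at most 0.56 on the log2 scale. Lean against obese called 3 of 10, all lower, where 35.0% of the 15014 tested genes were called; lean against control called 4, all lower, where 38.2% were. Both counts are near those shares, of which 17.4% and 19.1% were lower. The groups did not overlap for 3 and 2 members, beside 45.2% and 47.8% of all genes. Per2 showed the largest fall: it was at 25.5, 24.9 and 27.5 CPM in control, 19.6, 16.7 and 16.5 CPM in lean and 21.4, 24.1 and 20.1 CPM in obese. The 3 lean libraries were below all others, with -0.31 against obese (SE 0.0768, adjusted p = 0.00169) and -0.56 against control (SE 0.0743, adjusted p = 2e-07). Cry1 was at 12.9, 10.5 and 14.4 CPM in control, 9.85, 10.7 and 10.2 CPM in lean and 11.8, 14.4 and 13.6 CPM in obese. It fell against obese without overlap (log2 -0.38, SE 0.0985, adjusted p = 0.00291), and against control with overlap (log2 -0.30, adjusted p = 0.0133; 0.0522 without control replicate 1, 0.153 without control replicate 3 and 0.0571 without lean replicate 1).

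Nr1d2 in NMuMG was at 50.2, 44.8 and 51.4 CPM in control, 43.7, 42.7 and 45.9 CPM in lean and 49.6, 51.7 and 51.4 CPM in obese. It fell by 0.21 on the log2 scale against obese (SE 0.0524, adjusted p = 0.00187). Its -0.15 against control (adjusted p = 0.0226), where the groups overlapped, was lost without control replicates 1 or 3 or lean replicates 1 or 2 (adjusted p from 0.0635 to 0.146) and in DESeq2 (adjusted p = 0.0507). Dbp was at 10.3, 10.5 and 9.10 CPM in control, 7.78, 8.01 and 7.62 CPM in lean and 9.05, 8.82 and 7.33 CPM in obese. It fell against control (log2 -0.36, SE 0.099, adjusted p = 0.00416), while -0.10 against obese (adjusted p = 0.482) was not called, and the lowest obese library lay below all lean libraries.

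The other NMuMG members were not called with lean secretome. Per1 differed by 0.00 from obese (SE 0.0738, adjusted p = 0.996), at 25.1, 23.4 and 21.1 CPM in lean and 22.6, 25.6 and 21.5 CPM in obese. Per3 was at 12.5, 11.1 and 11.7 CPM in lean and 12.7, 13.8 and 9.34 CPM in obese (log2 -0.01, adjusted p = 0.937). Nr1d1 was at 34.2, 34.1 and 30.7 CPM in lean and 32.1, 29.6 and 28.8 CPM in obese (log2 0.13, adjusted p = 0.0896). For Cry2, Tef and Bhlhe40 the lean to obese values were 0.03, -0.05 and 0.03, with adjusted p from 0.387 to 0.859.

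The difference between the lines was tested directly in a fit of all 18 mouse libraries. The effect of lean against obese differed between E0771 and NMuMG for 8 of the 10 genes, where 34.2% of 16529 genes differed. For lean against control 9 of 10 differed, where 34.5% did. The E0771 effect was lower than that of NMuMG by 1.69 for Dbp (log2 difference -1.69, SE 0.127, adjusted p = 4.22e-13), and the difference was -1.49 for Per3 (SE 0.147, adjusted p = 1.94e-09) and -0.76 for Per2 (SE 0.123, adjusted p = 3.77e-06). The opposite sign was seen for Per1 at 0.68 (SE 0.105, adjusted p = 1.6e-06) and for Cry1 at 0.52 (SE 0.138, adjusted p = 0.00255), which fell in NMuMG. Tef, Bhlhe40 and Nr1d1 differed by -0.38, -0.42 and -0.34. Cry2 (log2 difference -0.09, adjusted p = 0.632) and Nr1d2 (-0.15, adjusted p = 0.0793) were not called for lean against obese. Nr1d2 differed for lean against control (-0.28, SE 0.0682, adjusted p = 0.00102).

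**Figure D3:**
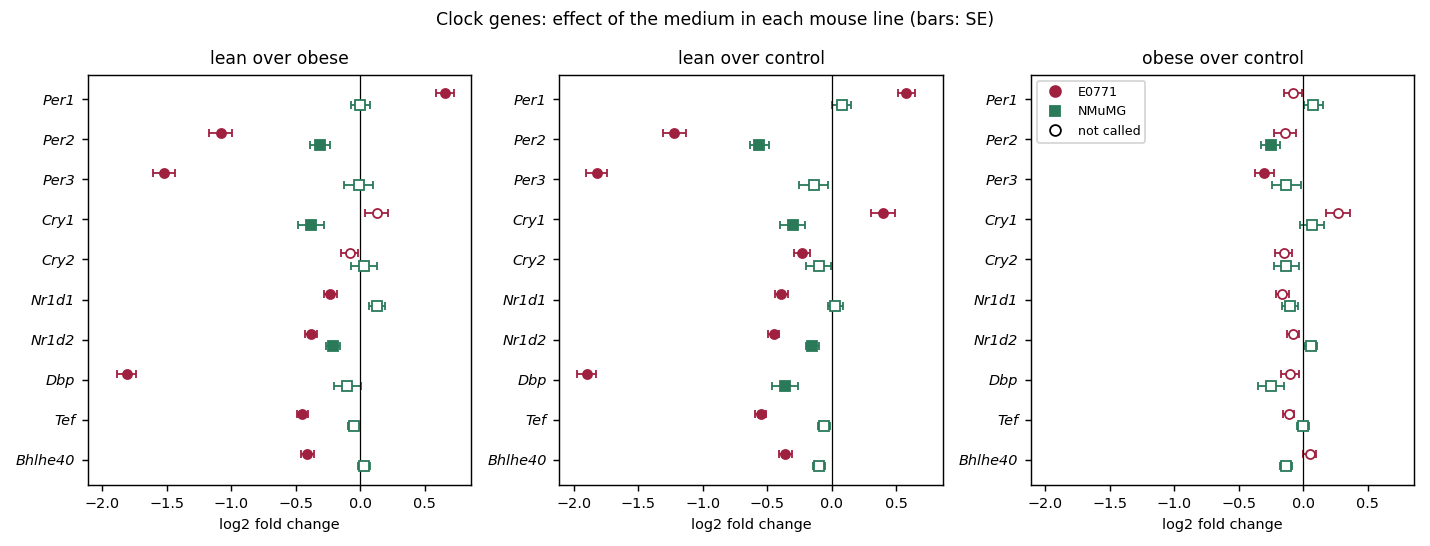
Log2 fold changes (x axis) of the 10 clock genes (rows) for lean over obese, lean over control and obese over control in E0771 (circles) and NMuMG (squares); bars are SE, and open symbols were not called. Dbp, Per3 and Per2 of E0771 lie farthest to the left in both comparisons with lean secretome, at -1.81, -1.52 and -1.08 against obese, and Per1 lies to the right at 0.66.

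Between obese secretome and control, 1 clock gene was called in each mouse line. The comparisons with control share their control libraries. In E0771 1 of 10 was called, where 2.61% of genes were (1.4% lower): Per3 fell from 37.4 ± 3.11 to 30.4 ± 1.65 CPM (SD, n = 3; log2 -0.30, edgeR adjusted p = 0.0267). That call was lost without control replicate 1 (adjusted p = 0.259), control replicate 2 (0.0693), obese replicate 1 (0.0624) or obese replicate 3 (0.192). Nr1d1, Nr1d2 and Tef, at -0.16, -0.08 and -0.11, were below control in all obese libraries but had adjusted p from 0.0851 to 0.44. In that comparison 4 of 10 members did not overlap, beside 21.2% of all genes. In NMuMG 1 of 10 was called, where 5.01% of genes were (2.66% lower): Per2 fell (log2 -0.25, adjusted p = 0.0392), a call lost in DESeq2 (adjusted p = 0.0677) and on leaving out any library of the 2 groups but obese replicate 2 (adjusted p from 0.0644 to 0.245). The groups did not overlap for 3 members, beside 21.2% of all genes in NMuMG as well. The effect of obese against control differed between the lines for 0 of 10 genes in edgeR and 0 in DESeq2, with 1 at an unadjusted p under 0.05, where 1.69% of all genes differed.

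In SkBr3, NR1D1 had the largest difference between lean and obese of the 4 human genes followed. It ranked 1988th from the lowest of the 14874 fold changes in that comparison. PER1 (ENSG00000179094) was at 27.2, 27.8, 31.3 and 31.3 CPM in lean and 29.8, 27.5, 27.7 and 28.9 CPM in obese, and was not called (log2 0.04, SE 0.0605, adjusted p = 0.578). DBP (ENSG00000105516) was at 19.6, 19.7, 21.1 and 20.9 CPM in control, 22.2, 20.9, 23.0 and 21.8 CPM in lean and 22.4, 21.3, 21.3 and 22.5 CPM in obese. It was not called in any comparison, with 0.01 against obese (adjusted p = 0.942), although all obese libraries lay above all control libraries (log2 0.11, adjusted p = 0.436).

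NR1D1 (ENSG00000126368) was at 12.2, 14.1, 11.6 and 12.1 CPM in control, 11.2, 11.3, 10.9 and 10.2 CPM in lean and 12.8, 13.0, 13.9 and 14.8 CPM in obese. Lean libraries lay below all others, and it fell against obese (log2 -0.32, SE 0.0802, adjusted p = 0.00236), the 1 of 4 called where 44.1% of 14874 genes were (23.1% lower). Against control, 2 of 4 were called where 48.8% were (25.1% lower), and both fell: NR1D1 (log2 -0.20, adjusted p = 0.0461) and PER2 (ENSG00000132326; log2 -0.17, SE 0.0626, adjusted p = 0.0287). PER2 was at 21.5, 20.6, 20.0 and 20.9 CPM in control, 17.8, 18.5, 18.1 and 19.4 CPM in lean and 19.4, 20.0, 17.8 and 18.4 CPM in obese. NR1D1 against control was lost in 13 of 17 other settings (adjusted p from 0.0526 to 0.225), and PER2 without a low-count filter (0.0846) or without control replicate 1, 2 or 4 or lean replicate 1 or 2 (0.0535 to 0.0762). Obese against control called 0 of 4 in edgeR and 0 in DESeq2, with 1 at an unadjusted p under 0.05, where 1.16% of genes were called. The groups did not overlap for 1, 2 and 1 of the 4 genes in lean against obese, lean against control and obese against control, beside 34.7%, 41.6% and 11.0% of all genes. Whether SkBr3 differed from the mouse lines was not tested.

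**Figure D4:**
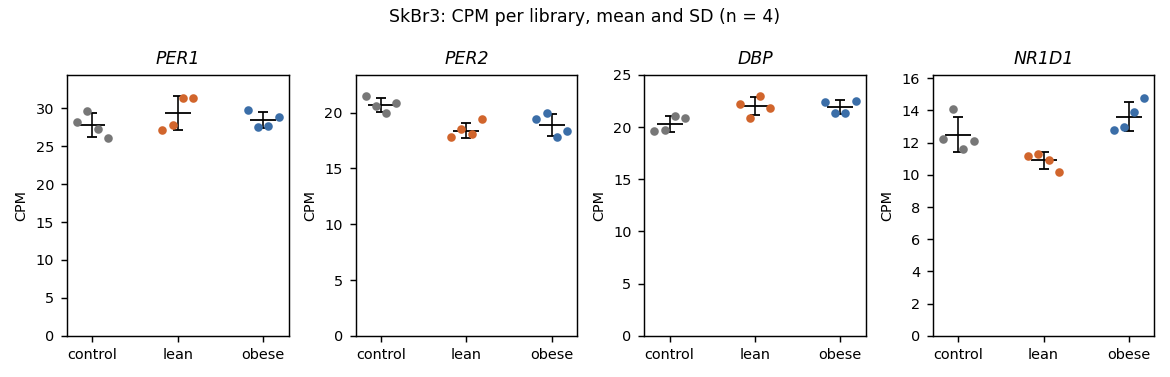
CPM of PER1, PER2, DBP and NR1D1 in each SkBr3 library (points) by medium; horizontal lines are means and bars SD (n = 4), and each axis starts at 0. The 4 lean libraries of NR1D1, at 10.2 to 11.3 CPM, lie below the 4 obese libraries, at 12.8 to 14.8 CPM.

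Per kb of exon, the order of the members also differed between the mouse lines. In E0771 control cells, Bhlhe40 led at 30.8 CPM per kb, with Nr1d1 at 30.2, Dbp at 25.7, Nr1d2 at 23.3 and Tef at 17.7. Cry2 followed at 5.80, then Per1 at 4.40, Per3 at 3.89, Per2 at 3.72 and Cry1 at 3.51. Bhlhe40 and Nr1d1 overlapped over libraries, as did Per1 with Per3, Per3 with Per2 and Per2 with Cry1. With lean secretome Dbp moved from rank 3 to 5, at 6.89 CPM per kb, and overlapped Per1 at 6.59, and Per3 was the lowest at 1.11. Per3 was also the lowest with obese secretome, at 3.16, where it overlapped Per2 at 3.37. In NMuMG control cells Bhlhe40 was again highest at 12.7 CPM per kb. Dbp was at 3.34, rank 8, and overlapped Cry1 at 3.77. Per3 was the lowest in NMuMG, at 1.35 in control, 1.22 in lean and 1.24 in obese.

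Other genes of the loop were counted from a list of 17, of which 14 were tested in E0771 and 15 in NMuMG. In E0771, 9 were called for lean against obese (3 higher, 6 lower) and 8 for lean against control (3 higher, 5 lower), counts near the 52.7% and 56.3% of all genes called there. In NMuMG 4 and 2 were called, where 35.0% and 38.2% of all genes were. The list's medians in E0771 were -0.08 against obese and -0.14 against control, beside 0.003 and -0.013 over all genes. Clock, the positive partner of BMAL1, rose in E0771 from 159.5, 154.1 and 151.3 CPM in obese to 189.4, 186.0 and 197.5 CPM in lean (log2 0.30, SE 0.0403, adjusted p = 8.75e-07), but not in NMuMG (-0.03, adjusted p = 0.676), and the lines differed (0.34, adjusted p = 6.97e-06). Arntl was not called in E0771, at 0.10 against obese and -0.01 against control (adjusted p = 0.173 and 0.857). In NMuMG it rose by 0.35 against obese (adjusted p = 0.00288), although obese replicate 1 at 14.9 CPM was near the lean libraries at 15.5, 16.3 and 15.7 CPM, and by 0.45 against control (adjusted p = 0.000187). The lines differed for Arntl against control (-0.43, adjusted p = 0.0014) and were not called to differ against obese (-0.24, adjusted p = 0.0874).

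Among the factors that share sites with the members, Nfil3, the repressor at D-boxes that opposes Dbp and Tef, rose in E0771 by 0.44 against obese (SE 0.0784, adjusted p = 4.14e-05). Its libraries were at 26.0, 24.2 and 28.0 CPM in lean and 18.6, 19.6 and 19.5 CPM in obese. In NMuMG it was at -0.09 (adjusted p = 0.484), and the lines differed by 0.54 (adjusted p = 0.000572). Hlf, the third PAR bZIP activator, fell in E0771 (log2 -1.83, SE 0.405, adjusted p = 0.000481) at low levels, from 0.906, 1.02 and 0.921 CPM in obese to 0.250, 0.109 and 0.415 CPM in lean, where its raw counts ran from 3 to 13.

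Csnk1e, a casein kinase that marks PER proteins for turnover, rose in E0771 by 0.44 against obese (SE 0.0521, adjusted p = 1.49e-07), from 86.3, 74.6 and 80.3 CPM to 105.0, 110.5 and 111.6 CPM. The lines differed for Csnk1e (0.49, adjusted p = 6.76e-08). Bhlhe41, the relative of Bhlhe40, fell against obese in E0771 (log2 -0.47) and in NMuMG (-0.30). Ciart, a repressor of CLOCK and BMAL1, fell in both (-0.32 and -0.50), as did Timeless (-0.14, where the E0771 groups overlapped, and -0.24), and the lines were not called to differ for Bhlhe41, Ciart or Timeless (adjusted p from 0.21 to 0.501). The obese secretome called 1 of the 14 in E0771 against control, Bhlhe41, which rose (log2 0.33, adjusted p = 0.00526), where 2.61% of all genes were called, and in NMuMG the lowest adjusted p of the 15 was 0.0735, for Nfil3 (edgeR).

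**Figure D5:**
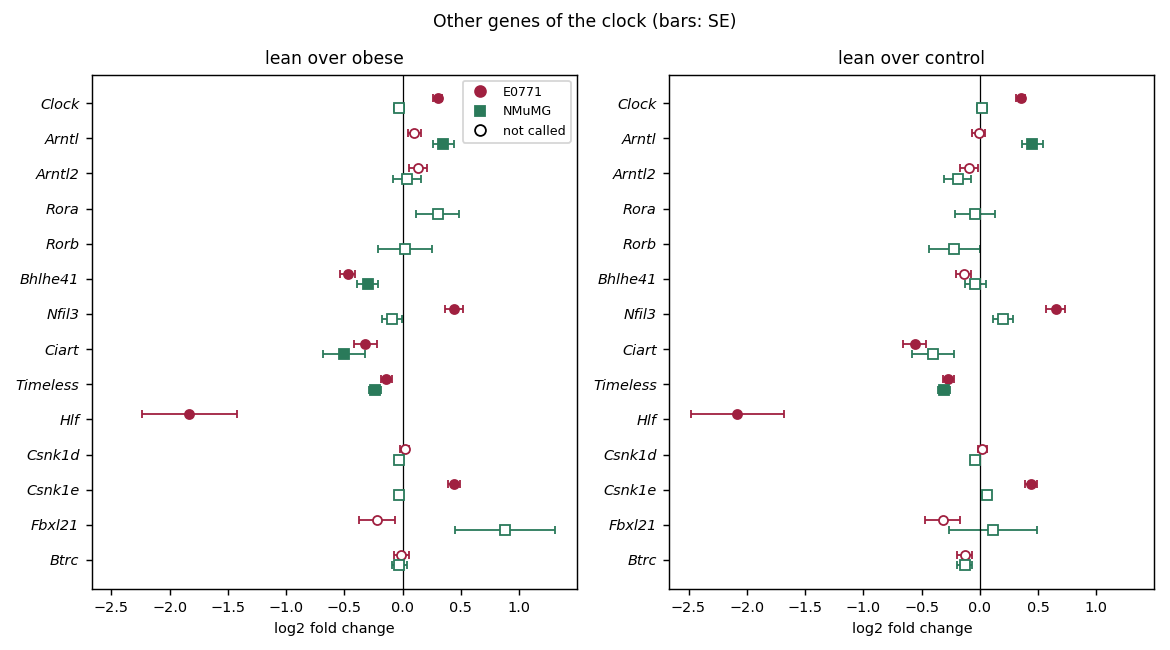
Log2 fold changes (x axis) of other clock genes that passed the count filter and are reported here (rows) for lean over obese and lean over control in E0771 (circles) and NMuMG (squares); bars are SE, open symbols were not called and a missing symbol was not tested. In E0771 Clock, Nfil3 and Csnk1e lie to the right of 0 and Hlf lies farthest to the left. Among the NMuMG values called for lean over obese, Arntl lies to the right at 0.35. Ciart, Bhlhe41 and Timeless lie to the left at -0.50, -0.30 and -0.24.

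Further lists held genes that respond to the clock or to signals that reset it. Of 8 clock outputs, 7 were tested in E0771, where 6 rose and 1 fell against obese, and 6 in NMuMG, where 3 rose and 1 fell. In that comparison 52.7% of all E0771 genes and 35.0% of all NMuMG genes were called. The medians of the outputs were 0.58 and 0.34, beside 0.003 and -0.002 over all genes. Against control, where 56.3% and 38.2% of all genes were called, the counts were the same in both lines. Obese against control called 1 output in E0771, which rose, where 2.61% of all genes were called. Alas1, the first enzyme of heme synthesis, rose in both lines (log2 1.20 in E0771 and 0.80 in NMuMG), and Elovl3, a fatty acid elongase, rose by 1.55 in E0771 at 3.57 to 5.49 CPM in lean. Of 10 immediate early genes, which respond within minutes to serum and other signals, 6 of 9 tested rose in E0771 and none fell, and 5 of 10 rose in NMuMG and none fell, where 52.7% and 35.0% of all genes were called in either direction. Against control 8 and 4 rose and none fell, where 56.3% and 38.2% of all genes were called in either direction. Atf3, a stress-induced factor, rose by 1.40 in E0771, and Fos rose by 1.40 there, where it was below 1 CPM in every library, and by 0.77 in NMuMG. Nr4a1, an orphan nuclear receptor, rose by 0.37 in NMuMG and by 0.64 in E0771. With obese secretome against control, 0 of 9 were called in E0771, where 2.61% of all genes were. In NMuMG 1 rose and 1 fell of 10 in that comparison, where 5.01% of all genes were called.

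Of 7 glucocorticoid-induced genes, 6 were tested in each line. Against obese, 1 rose and 4 fell in E0771, and 3 rose and 3 fell in NMuMG, beside 52.7% and 35.0% of all genes called. Against control, 1 rose and 3 fell in E0771, and 3 rose and 2 fell in NMuMG, beside 56.3% and 38.2% of all genes called. With obese secretome against control, 3 rose and 1 fell in NMuMG, where 5.01% of all genes were called. In E0771 that comparison called 0 of the 6, where 2.61% of all genes were called. Tsc22d3, which encodes the glucocorticoid-induced leucine zipper GILZ, fell in E0771 (log2 -0.63, adjusted p = 1.99e-05) and in NMuMG (log2 -0.72, adjusted p = 1.41e-08). Dusp1, a phosphatase of MAP kinases, rose in both lines, by 0.99 and 0.89. The part of glucocorticoid, serum or immediate early signals in the changes of the clock genes was not tested.

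Cell type markers moved with the medium in places. In E0771 the mesenchymal markers Vim, Col1a1 and Pdgfra were all lower in lean than in obese. In that comparison 52.7% of all genes were called (26.9% lower). The summed level of the list was 2170 to 2430 CPM in lean, 3340 to 3630 CPM in obese and 3780 to 3920 CPM in control. Its part in the clock gene changes was not tested. In NMuMG Col1a1 (log2 -0.50) and Vim (-0.12) were also lower in lean than in obese, and Pdgfra was not called. There 35.0% of all genes were called (17.4% lower). Dcn, also on the mesenchymal list, was not tested in either line. Summed adipocyte markers were at most 1.61 CPM in E0771, with Lep at 0 in every library. In NMuMG they were 2.02 to 2.19 CPM in lean and 0.373 to 1.10 CPM in obese, where Cidec rose by 1.66. Summed macrophage and leukocyte markers were 0.435 to 0.671 CPM in lean, 0 to 0.157 CPM in obese and 0 to 0.146 CPM in control in E0771, and at most 0.861 CPM in NMuMG. The NMuMG epithelial markers were higher in lean than in obese for 4 of 5, where 35.0% of all genes were called. Against control, 2 rose with lean secretome, where 38.2% of all genes were called. With obese secretome 2, Cdh1 and Krt19, fell against control, where 5.01% were called. Their summed level was 7810 to 8030 CPM in lean, 6730 to 7110 CPM in obese and 7070 to 7500 CPM in control. The part of these in the results was not tested either.

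The genes most like 3 of the members over the 18 mouse libraries, after each line was centred on its own mean, were ranked among 8942 genes by Pearson's r, as a description of libraries that share their media. For Dbp these were Igfbp4 (r = 0.990), Btbd2 (0.988), Zfp523 (0.987), Ulk2 (0.986) and Klf13 (0.986). For Per1 they were Hccs (0.946), Ppp1r13l (0.938), Klhl2 (0.929), Dennd5b (0.929) and Fastkd5 (0.926). For Nr1d1 they were Gse1 (0.913), Khnyn (0.905), Plekhg3 (0.905), Zkscan8 (0.901) and Vps16 (0.899), lower values than those of Dbp.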

How the data were processed

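Poly(A) RNA was sequenced from directional libraries, per the labels' protocols. The authors deposited 1 count table for each species, with whole-number raw counts by Ensembl ID and no normalization. Per the submitters' processing notes they used cutadapt 1.16, STAR 2.7.9a, featureCounts 1.6.3 and build GRCm39, which is listed for the human samples too. The strand setting of the counting is not given in the sources used here. Mouse symbols came from GENCODE M21, which named 52073 of 56980 IDs; gene lengths for values per kb are its exon unions.

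Each line was fitted alone with its 3 media in edgeR 4.0.16 (R 4.3.3): filterByExpr, TMM, robust dispersions and a quasi-likelihood F test, with Benjamini-Hochberg adjustment over all genes tested in each contrast and a threshold of 0.05. This left 14874 genes in SkBr3, 13813 in E0771 and 15014 in NMuMG. Line differences were interaction terms in a fit of all 18 mouse libraries (16529 genes). Raw counts carry no molecular identifiers. Replicate pairs differed by a chi-square per degree of freedom of 1.99 to 15.2, more than counting noise alone gives. Each library was counted as a replicate, although these values cannot tell separate cultures from separate preparations of the same culture. On simulated data with 200 changed genes, 1.5-fold changes were recovered in 76.5% (SkBr3), 79.0% (E0771) and 79.5% (NMuMG) of cases. Changes of 1.25-fold were recovered in 52.0%, 56.0% and 61.0%. Unchanged genes made up 4.22% to 8.94% of calls over the folds tried, most of these shares above the 5% aimed at. The lean comparisons called far more than 200 genes, so these rates need not carry over to them.

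All members were named whatever their values; other clock genes were named where tested, and of further lists the 2 largest called changes of lean against obese per line. Some list genes are counted but not reported here by name. The members and lists were chosen with earlier results of these data known. Alternatives were DESeq2 1.42.0 and its size factors, no low-count filter, a replicate block, fits of the 2 groups compared only, and leaving out each library. For likeness, log2 CPM used a prior count of 2 and genes had a mean of at least 2 in both lines.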

Additional observations from a re-analysis of the deposited data

Results flagged for a closer look

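The effect of the lean secretome differed between E0771 and NMuMG, by the interaction test in edgeR, for most of the clock genes. All values are log2 differences, E0771 minus NMuMG, of 3 libraries per group. For lean against obese, the effect in E0771 was higher for Per1 (0.68, adjusted p = 1.6e-06) and Cry1 (0.52, adjusted p = 0.00255). It was lower for Dbp (-1.69, adjusted p = 4.22e-13), Per3 (-1.49, adjusted p = 1.94e-09), Per2 (-0.76, adjusted p = 3.77e-06), Bhlhe40 (-0.42, adjusted p = 4.09e-06), Tef (-0.38, adjusted p = 3.88e-06) and Nr1d1 (-0.34, adjusted p = 0.000491). For lean against control, which shares the lean libraries, it was higher for Cry1 (0.73, adjusted p = 5.28e-05) and Per1 (0.53, adjusted p = 7.84e-05). It was lower for Per3 (-1.65, adjusted p = 1.53e-10), Dbp (-1.52, adjusted p = 2.28e-12), Per2 (-0.64, adjusted p = 4.12e-05), Tef (-0.47, adjusted p = 4.95e-08), Nr1d1 (-0.39, adjusted p = 7.35e-05), Nr1d2 (-0.28, adjusted p = 0.00102) and Bhlhe40 (-0.23, adjusted p = 0.00622).

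With obese secretome against control, every SkBr3 library was higher for DBP (log2 0.11) and every NMuMG library lower for Dbp (log2 -0.25). Neither was called, and the difference between these lines was not tested. In that comparison the groups did not overlap for 11.0% of all SkBr3 genes and 21.2% of all NMuMG genes. For Dbp in E0771 the groups overlapped (log2 -0.10).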

How the results depend on the processing

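Of 1704 values of members under alternatives, 1632 kept their direction and side of the threshold, 38 lost the call, 6 gained it and 28 changed sign, none of these last called. The E0771 changes of lean against obese kept their calls in all 14 alternatives for Dbp (-1.87 to -1.69), Per3 (-1.61 to -1.47), Per2 (-1.14 to -0.98) and Per1 (0.59 to 0.72). Of the 4 SkBr3 members, 2 were called for lean against control, and 1 with DESeq2 size factors, with DESeq2, with the replicate block or with only those 2 groups, and 0 without a low-count filter; the E0771 count for obese against control went from 1 to 2 with only those 2 groups, and that of NMuMG from 1 to 0 with DESeq2. Leaving out each library gave, for lean against obese, lean against control and obese against control, 1 to 1, 0 to 2 and 0 to 0 in SkBr3, 8 to 8, 9 to 10 and 0 to 2 in E0771, 3 to 4, 2 to 5 and 0 to 1 in NMuMG, and 8 to 8, 9 to 9 and 0 to 0 for the line differences. Nr1d1 was gained for E0771 obese against control without lean replicate 3 (adjusted p = 0.0346) or with only those 2 groups (0.0444); in NMuMG it was gained for lean against obese without lean replicate 3 (0.0269) or obese replicate 1 (0.0331), and Bhlhe40 for lean against control without control replicate 1 (0.0471) or lean replicate 3 (0.048). Signs changed on leaving out 1 library for SkBr3 DBP (-0.02 to 0.03), NMuMG Per1 (-0.06 to 0.08), Per3 (-0.17 to 0.10) and Cry2 (-0.08 to 0.11) for lean against obese, and for obese against control for NMuMG Tef (-0.02 to 0.03), Cry1 (-0.04 to 0.18) and Per3 (-0.25 to 0.03) and the Cry2 line difference (-0.09 to 0.06). NMuMG Per1 was at 0.00 without a filter and with the replicate block, and Tef at 0.00 without a filter, each with the other sign. The cause was not tested. Over all genes, obese against control called 172 in SkBr3 (20 to 655 on leaving out 1 library, 849 with only the 2 groups, 539 without a filter and 388 in DESeq2), 360 in E0771 (79 to 601; 626 without a filter) and 752 in NMuMG (384 to 893); the lines differed for 279 genes (149 to 392; 428 without a filter and 422 in DESeq2), so shares of called genes in those comparisons are uncertain. Same-numbered replicates did not deviate together, with residual correlations of -0.0452 to 0.0523 in SkBr3, -0.0942 to 0.110 in E0771 and -0.0285 to 0.0250 in NMuMG, and 3 of 12, 3 of 9 and 3 of 9 libraries correlated best with their own number, so the numbers do not pair the libraries; the replicate block kept counts of 8 and 10 in E0771 and 3 and 4 in NMuMG for the lean comparisons. Depth limits Hlf and Fos, whose counts were low.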
